A study of Mus musculus with 2 samples.

Results

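miR-15a, miR-15b, miR-16, miR-195a and miR-497 are microRNAs that share the seed AGCAGCA, the stretch of bases 2 to 8 with which a microRNA recognises its targets. They were followed here through every read of 18 nt or longer that lay in sense and without mismatch inside 1 of the hairpins Mir15a, Mir15b, Mir16-1, Mir16-2, Mir195a and Mir497. These are 6 of the 2202 hairpin transcripts annotated as miRNA in GENCODE M21 (mouse, GRCm38). They held 17631 reads in the Dicer null library and 471930 reads in the Dicer f/f library, made of 407 distinct sequences, none of which fitted a transcript outside the family. No read lay antisense in these hairpins in either library.

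The null library came from Dicer -/- mesenchymal stem cells, and the f/f library from Dicer f/f cells, which the labels also call wild type for Dicer. Both were immortalized monoclonal lines of the C57BL/6 strain, grown in alpha-MEM with penicillin, streptomycin and 10% fetal bovine serum and harvested near confluence. RNA of 15 to 50 nt was sequenced from 1 library per genotype. A monoclonal line descends from 1 cell, so differences between clones and the effect of the genotype cannot be told apart. The labels give neither the deleted exon nor the way it was deleted.

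A canonical microRNA is cut from its primary transcript by the nuclear enzyme Drosha, which sets the 5′ end of the 5p arm and the 3′ end of the 3p arm. Dicer then removes the terminal loop and so sets the 3′ end of the 5p arm and the 5′ end of the 3p arm. The miR-15/16 family is known as a brake on the cell cycle and on survival, through targets such as cyclins D and E and Bcl2, and Mir15a and Mir16-1 lie in a region often deleted in chronic lymphocytic leukaemia. In other mouse tissues the family is known for limiting the proliferation of heart muscle and lymphoid cells.

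The mature 5p sequences (RefSeq, GRCm38.p6) are shown because all later read ends are counted on them, with the shared seed in capitals.
miR-15a-5p: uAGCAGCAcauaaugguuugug
miR-15b-5p: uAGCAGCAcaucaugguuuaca
miR-16-5p: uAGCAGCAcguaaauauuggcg
miR-195a-5p: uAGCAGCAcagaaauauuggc
miR-497a-5p: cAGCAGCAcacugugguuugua
miR-16-5p is the same in Mir16-1 and Mir16-2. Counted over the mature length with the seed included, miR-195a matches miR-16 at 19 of 21 bases and miR-15a matches miR-15b at 18 of 22. miR-497 and miR-16 are the least alike, with 11 of 22 bases the same. Every read was long enough to tell these miRNAs apart without a mismatch.

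The hairpins form 3 clusters on 3 chromosomes. Mir15a (chr14:61632027-61632110, minus strand, an intron of Dleu2) and Mir16-1 (chr14:61631880-61631972, minus strand, overlapping an exon of Dleu2 at least in part) lie 54 nt apart. No Mir16-1 read fitted a Dleu2 transcript. Mir15b (chr3:69009772-69009835, plus strand) and Mir16-2 (chr3:69009902-69009996, plus strand) lie 66 nt apart in introns of Smc4, which encodes a condensin subunit. Mir497 (chr11:70234717-70234800, plus strand) and Mir195a (chr11:70235042-70235135, plus strand) lie 241 nt apart and overlap no host gene on their strand in this annotation.

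Mir15b, Mir16-1 and Mir16-2 carry most of the results, and their RefSeq sequences are printed with the mature arms in capitals, so that the lower-case stretch between the arms is the part Dicer normally removes.
Mir15b: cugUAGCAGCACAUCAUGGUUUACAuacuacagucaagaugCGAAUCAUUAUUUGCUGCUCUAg
Mir16-1: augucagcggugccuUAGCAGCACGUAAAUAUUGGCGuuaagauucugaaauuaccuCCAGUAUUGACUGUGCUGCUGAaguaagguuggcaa
Mir16-2: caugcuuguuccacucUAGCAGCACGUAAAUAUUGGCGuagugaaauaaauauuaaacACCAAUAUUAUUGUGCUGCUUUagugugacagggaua

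The libraries held 6291599 reads (null) and 9943989 reads (f/f), so 3 reads, taken as the floor, equal 0.477 (null) and 0.302 (f/f) counts per 1000000 reads (CPM). miRNA hairpins took 2.61% of the null reads and 59.7% of the f/f reads. Mesenchymal marker miRNAs (the miR-199a, miR-214, miR-143, miR-145a, miR-21a and miR-22 hairpins) held 30648 null and 1879884 f/f reads, with all 7 hairpins seen in both. Summed over their hairpins, haematopoietic markers held 79 and 1335 reads, epithelial 285 and 37, endothelial 13 and 333, muscle 8 and 2237, liver 22 and 18, and neural 15 and 998, null before f/f. Single hairpins made up most of 2 of these f/f sums, with 1299 haematopoietic reads from Mir155 and 2236 muscle reads from Mir206. The other haematopoietic hairpins did not follow Mir155 alike: Mir142 had 30 and 11 reads, Mir223 38 and 9, and Mir150 2 and 16. The epithelial sum was 12.2-fold higher in the null, with 129 null and 5 f/f reads from Mir203, 55 and 1 from Mir141 and none from Mir429 in either library, and its part in the results below was not tested. With 1 library per genotype there is no test between genotypes, and intervals in brackets are exact 95% intervals that cover counting error only.

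The family was depleted in the null cells, and what remained was mostly longer than a mature microRNA. All family reads came to 2802 CPM in the null and 47459 CPM in the f/f library, 16.9-fold lower in the null (16.7 to 17.2). Reads of 18 to 23 nt, the size of a mature microRNA, came to 534 CPM in the null and 47149 CPM in the f/f library, 88.3-fold lower (85.3 to 91.4). Reads of 24 to 36 nt went the other way, with 2268 CPM in the null and 310 CPM in the f/f library, 7.31-fold higher in the null (7.03 to 7.60). The longer reads made up 80.9% of family reads in the null (80.4 to 81.5) and 0.654% in the f/f library. All levels are relative to the whole library; scaling to snoRNA and snRNA reads shifts every log2 ratio by -2.10, scaling to all reads that fit a transcript shifts it by 1.75, and directions that turn under either are given beside their values. Fewer cells of a type and less RNA per cell cannot be told apart in bulk libraries.

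The family's share of all miRNA reads was 10.8% in the null and 7.95% in the f/f library, so it lost less than miRNA reads as a whole. miR-16-5p ranked 3rd of 542 miRNA species in the null and 5th of 850 in the f/f library, and miR-15b-5p ranked 8th and 17th. A species here is 1 arm of 1 hairpin, or of several hairpins that yield the same reads. Among species seen 100 or more times in the f/f library, 88.3% were lower in the null by more than 2-fold, as were 7 of the 8 family species, with a median log2 ratio of -4.62 against -5.16 over all species tested. For reads of 18 to 23 nt the share was 94.8%, and all 8 family species were past 2-fold, with a median of -6.38 against -6.33. Per snoRNA and snRNA read the share was 94.3% (8 of 8 in the family), and per read that fits a transcript 80.1% (7 of 8).

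The members differed widely in how much was left. Counting all lengths, miR-15b was the least depleted. It had 884 CPM in the null and 6400 CPM in the f/f library, 7.24-fold lower. miR-16, the most abundant member, had 1816 CPM in the null and 34574 CPM in the f/f library, 19.0-fold lower. miR-15a had 76.3 CPM in the null and 2125 CPM in the f/f library, 27.9-fold lower. The pair from the chromosome 11 cluster stood apart from these. miR-195a had 23.4 CPM in the null and 2294 CPM in the f/f library, 98.2-fold lower (83.5 to 116). miR-497 had 2.70 CPM in the null and 2065 CPM in the f/f library, 764-fold lower (477 to 1312). None of the 5 counting intervals overlapped, and the order from least to most depleted was miR-15b, miR-16, miR-15a, miR-195a and miR-497.

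In the f/f library miR-15a, miR-195a and miR-497 stood at nearly the same level, between 2065 and 2294 CPM, whereas in the null they spread over a range from 2.70 to 76.3 CPM. Within the chromosome 11 cluster the neighbours Mir195a and Mir497 together held 164 null and 43350 f/f reads, 167-fold lower (143 to 196). miR-16 took 64.8% of family reads in the null and 72.9% in the f/f library, and miR-15b took 31.6% and 13.5%.

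**Figure D1:**
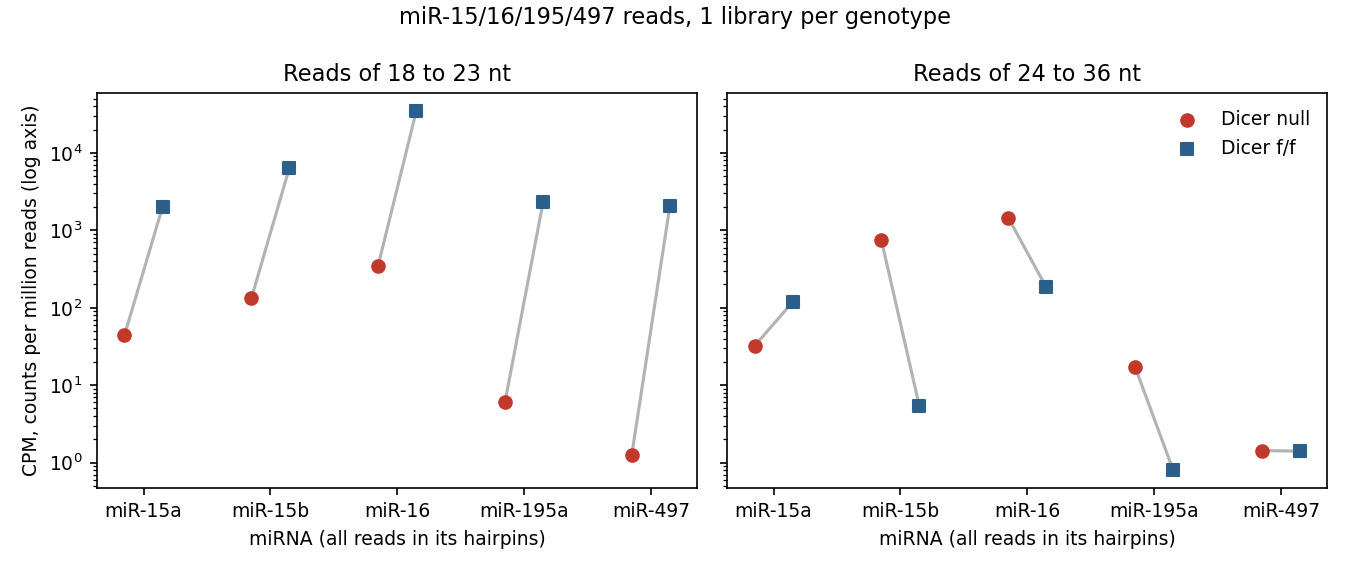
CPM (log axis) of each miRNA in the null (red circles) and f/f (blue squares) libraries, for reads of 18 to 23 nt (left) and 24 to 36 nt (right), 1 library per genotype. Short reads were lower in the null for all 5 miRNAs, while long reads were higher for miR-15b, miR-16 and miR-195a, lower for miR-15a and close to equal for miR-497 (9 null and 14 f/f reads), whose direction turns with the scaling.

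Splitting by length separated the members further. For short reads, miR-15a had 44.2 CPM in the null and 2006 CPM in the f/f library, 45.4-fold lower, close to miR-15b with 132 CPM in the null and 6395 CPM in the f/f library, 48.5-fold lower (45.3 to 52.0). miR-16 short reads were 98.0-fold lower, miR-195a 380-fold (277 to 537) and miR-497 1623-fold (823 to 3760). The long reads were spread just as unevenly. Long miR-15b reads came to 753 CPM in the null and 5.33 CPM in the f/f library, 141-fold higher in the null (108 to 189). Long miR-16 reads came to 1465 CPM in the null and 184 CPM in the f/f library, 7.95-fold higher, and long miR-195a reads to 17.3 CPM in the null and 0.805 CPM in the f/f library, 21.5-fold higher (10.6 to 51.1). miR-15a was the exception, with 32.1 CPM of long reads in the null and 118 CPM in the f/f library, 3.69-fold lower. Its f/f long reads included 1150 reads of a 24-nt form. That form equals the 23-nt form plus an A that matches the hairpin, so an added A and a longer cut cannot be told apart. From the usual start, miR-15a had 12 null and 1 f/f reads at 26 nt, 38 and 1 at 27 nt, and 0 and 6 at 36 nt.

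Set against the f/f level of the mature product, the amount of long 5p RNA in the null ranged over more than 2 orders of magnitude. Long null 5p reads equalled 10.6% of the f/f short 5p level for miR-15b, 4.22% for miR-16, 1.25% for miR-15a, 0.769% for miR-195a and 0.0696% for miR-497. This order is the same as for the level over all lengths, but both measures use these same reads, so it is not a separate result.

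The length profiles of the 5p reads showed the change base by base. For miR-15b-5p, reads from the usual start of exactly 22 nt numbered 177 in the null and 47941 in the f/f library, 171-fold lower. At 23 nt there were 394 null and 131 f/f reads, 4.75-fold higher in the null (3.89 to 5.84), and at 26 nt 2509 null and 30 f/f reads, 132-fold higher (92.4 to 196). The direction thus turned between 22 and 23 nt.
For miR-16-5p the 22-nt form numbered 276 null and 285587 f/f reads, 655-fold lower (582 to 739), the 23-nt form 1591 and 32237, 12.8-fold lower, and the 24-nt forms 2658 and 1598, 2.63-fold higher. Here the turn came between 23 and 24 nt, or between 24 and 25 nt per snoRNA and snRNA read, where the 24-nt forms were 1.63-fold lower in the null. For miR-195a-5p the 21-nt RefSeq form had 0 null and 8666 f/f reads, at least 1828-fold lower, and the 22-nt form 8 and 12032 reads, 952-fold lower (483 to 2205). Its 25-nt form had 62 null and 0 f/f reads, at least 32.7-fold higher. For miR-497-5p the 22-nt form had 7 null and 12984 f/f reads, 1174-fold lower (569 to 2920). Bounds against 0 reads use the floor of 3 reads in the library at 0.

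**Figure D2:**
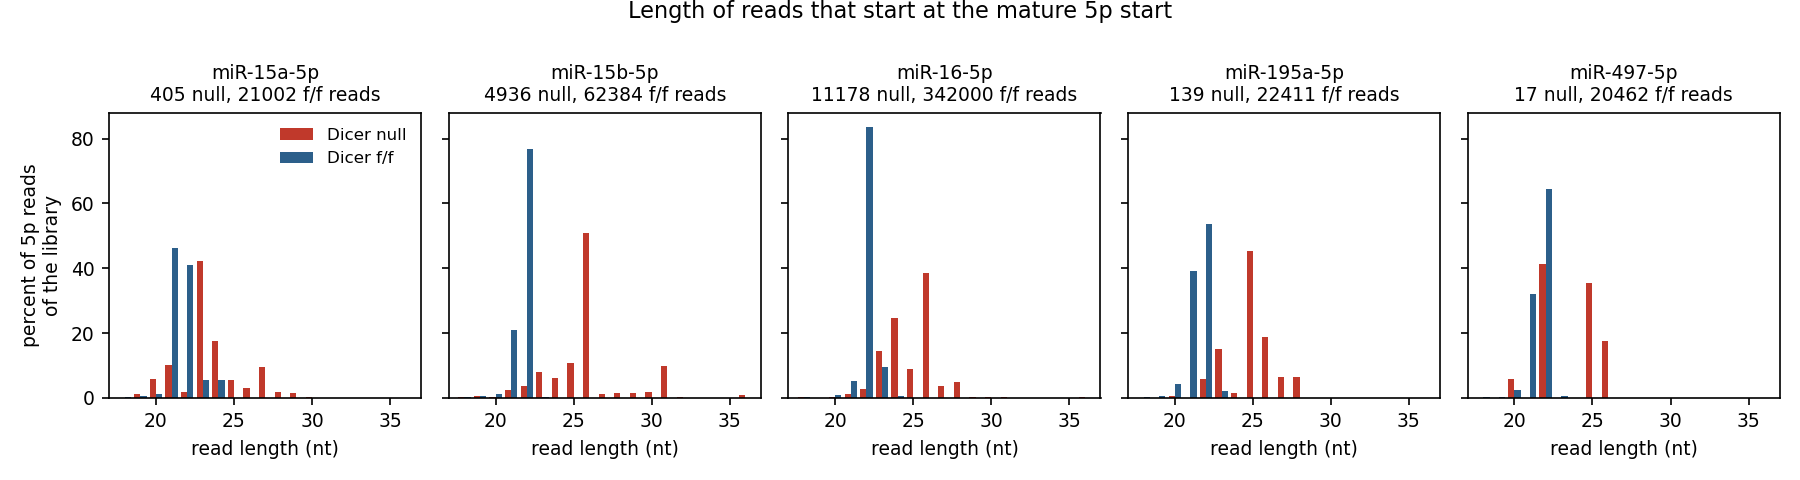
Length distribution of reads that start within 2 bases of the mature 5p start, as a percent of each library's 5p reads of that miRNA, null in red and f/f in blue. The f/f reads peak at 21 to 22 nt, whereas the null reads peak at 23 nt for miR-15a, 26 nt for miR-15b and miR-16, and 25 nt for miR-195a; miR-497 rests on 17 null reads.

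The 5′ end of the 5p reads hardly differed between the genotypes, and the 3′ end did. Of all 5p reads, taken by the side of the hairpin they fell on, 97.3% in the null and 98.4% in the f/f library began at the commonest f/f start. The commonest f/f 3′ end of each member was used by 3.08% of null reads (2.83 to 3.36) and 79.5% of f/f reads. At base 26 ended 51.2% of null and 0.0496% of f/f 5p reads of miR-15b, and 39.7% and 0.00817% of those of miR-16. Reads that ended beyond the commonest f/f 3′ end made up 92.6% of null and 0.290% of f/f reads for miR-15b, 96.1% and 10.2% for miR-16, 91.0% and 2.07% for miR-195a, and 83.9% and 52.1% for miR-15a. Such a shift was common: the commonest null 3′ end lay beyond the commonest f/f end in 74.5% of the 55 5p species with enough reads (at least 1000 in f/f and 100 in the null), and in all 4 family species among them. Likewise, reads of 24 nt or longer made up most null reads in 71.9% of species with at least 100 null reads, and in 4 of the 5 family species.

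The leading extended null reads are printed from the deposited data (T stands for U), with the bases beyond the RefSeq mature end in capitals, since these show how far the RNA ran past the mature arm.
Mir15b, 26 nt: tagcagcacatcatggtttacaTACT
Mir15b, 31 nt: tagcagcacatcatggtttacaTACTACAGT
Mir16-2, 26 nt: tagcagcacgtaaatattggcgTAGT
Mir16-2, 28 nt: tagcagcacgtaaatattggcgTAGTGA
Mir16-1, 24 nt: tagcagcacgtaaatattggcgTT
Mir195a, 25 nt: tagcagcacagaaatattggcATGG
Mir15a, 23 nt: tagcagcacataatggtttgtgG
Mir497, 25 nt: cagcagcacactgtggtttgtaCGG
Their reads, null before f/f, were 2509 and 30 for the 26-nt Mir15b form, 485 and 4 for the 31-nt form, 4006 and 15 for the 26-nt Mir16-2 form, 425 and 1 for the 28-nt form, and 1909 and 654 for the 24-nt Mir16-1 form. The Mir195a form had 62 and 0 reads, the Mir15a form 170 and 1141, and the Mir497 form 6 and 0. In Mir497 the 22-nt mature form, with 7 null reads, was ahead of the printed extended form.

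Those ends lay close to the 5′ edge of the terminal loop as RNAfold predicts it. The commonest last base of null 5p reads of 24 nt or longer lay 1 base before the first loop base in Mir15b and Mir195a, 3 bases before it in Mir16-1 and 2 bases before it in Mir497, which rests on 9 reads. In Mir15a and Mir16-2 the commonest last base lay inside the predicted loop, 1 and 2 bases past its first base. All 6 were within 3 bases of the edge, as were 60.3% of the 58 hairpins with at least 100 such reads. The length limit favours this, since a 24-nt read from the mature start already ends within 3 bases of the edge in all 6. In Mir15a and Mir16-1 the commonest end was that of a 24-nt read, the shortest counted. Whether ends lie nearer the edge than the limit alone would place them was not tested. The loop positions are predictions and were not measured.

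Reads from the other side of the hairpin told the mature 3p arm from loop-containing RNA. Reads that began within 2 bases of a mature 3p start numbered 13 in the null and 2486 in the f/f library, 121-fold lower (70.6 to 227). For miR-15b-3p the counts were 3 and 1186, 250-fold lower (85.4 to 1215), for miR-16 3p reads 10 and 878, and for miR-195a-3p 0 and 327, at least 69.0-fold lower. miR-15a-3p had 0 and 75 reads and miR-497a-3p 0 and 20. All 5 were lower in the null, though none came near the abundance of its 5p arm. In the f/f library the 5p arm outnumbered the 3p arm by 52.6 to 1 for miR-15b, 68.5 to 1 for miR-195a, 280 to 1 for miR-15a, 390 to 1 for miR-16 and 1023 to 1 for miR-497.

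Reads that began between the mature starts and ran into the 3p arm went the opposite way. The family had 798 such reads in the null and 23 in the f/f library, 54.8-fold higher in the null (36.3 to 87.0). Mir15b gave most of them, with 599 null and 3 f/f reads, 316-fold higher (107 to 1535). miR-16 gave 134 and 8, miR-15a 62 and 0, and miR-195a 3 and 12. The miR-195a direction goes against the others on few reads and turns per read that fits a transcript. Of its 12 f/f reads, 8 spanned only the loop and 1 or 2 bases of the 3p arm. The same holds for 5 of the 8 f/f reads of miR-16. These loop reads are counted again below. The choice of what counts as the 3p arm decides the result: when reads were sorted by the hairpin's midpoint, the Mir15b 3p side held 599 null and 1189 f/f reads, only 1.26-fold lower, or 2.69-fold higher per read that fits a transcript, and just 3 of the null reads began at the mature start.

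The leading null reads of this kind in Mir15b and Mir16-1 are shown with the part inside the mature 3p arm in capitals.
Mir15b, 25 nt: acagtcaagatgCGAATCATTATTT
Mir15b, 26 nt: agtcaagatgCGAATCATTATTTGCT
Mir16-1, 25 nt: acctCCAGTATTGACTGTGCTGCTG
They had 59, 54 and 17 reads in the null and 0 in the f/f library. In Mir15b, 137 null reads began at base 30 of the hairpin, directly after base 29, where most long 5p reads ended, and 58 began at base 29, directly after the second commonest end. They are the commonest and the third commonest start of the 625 null reads between the mature starts. Base 30 alone accounted for 21.9% of them. Directly after the leading long end began 3 of 75 null reads in Mir15a, 0 of 106 in Mir16-1 and 3 of 113 in Mir16-2. After lesser ends there were 24 of 75 in Mir15a at base 40, after the third commonest long end, and 19 of 106 in Mir16-1 at base 41, after the second commonest. In Mir16-2 the second and the third commonest ends were followed by 0 reads each.

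**Figure D3:**
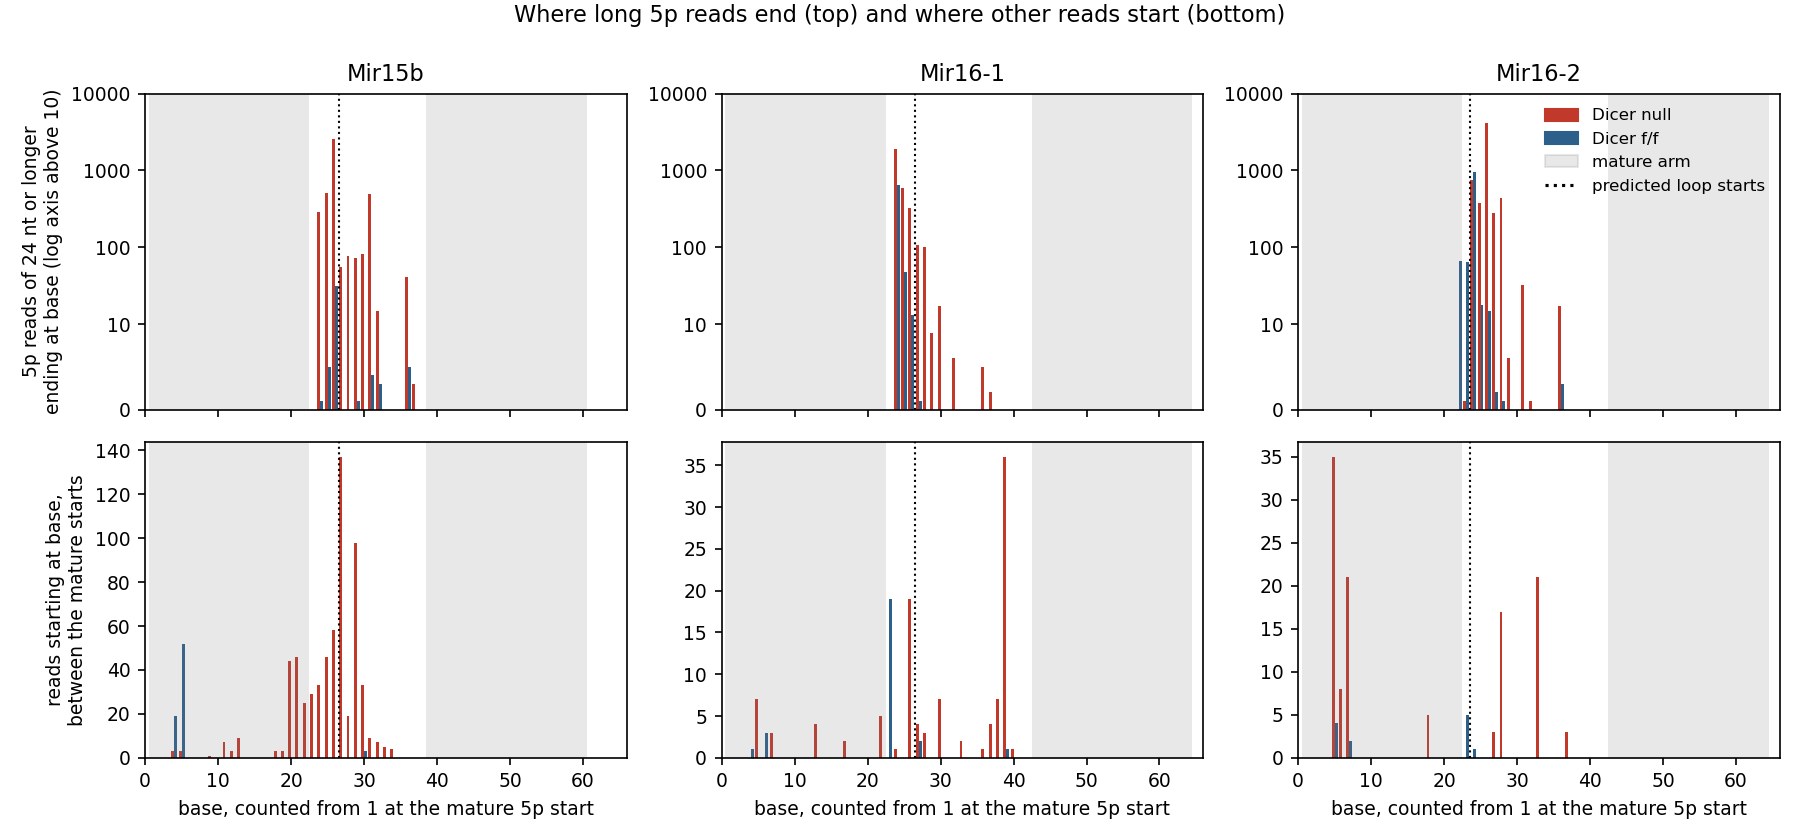
Number of 5p reads of 24 nt or longer that end at each base (top; log axis above 10) and number of reads that start at each base between the mature starts (bottom) in Mir15b, Mir16-1 and Mir16-2, null in red and f/f in blue; grey bands are the mature arms and the dotted line is the edge of the predicted loop. In Mir15b the null peak of starts directly follows the null peak of 5p ends, and the 19 f/f reads at the base after the 5p arm in Mir16-1 span exactly the stretch between its arms.

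The loop itself was found as a separate RNA in the f/f library. Reads that spanned from the end of the mature 5p arm to the start of the mature 3p arm, each end within 2 bases, numbered 0 in the null and 37 in the f/f library, at least 7.80-fold lower in the null. Mir16-1 gave 19 of them, all of the exact sequence between its arms, printed here because it equals the whole stretch between the RefSeq arms.
Mir16-1 loop, 20 nt: ttaagattctgaaattacct
Mir16-2 gave 6 f/f loop reads, Mir195a 8 and Mir497 4. The stretch between the arms is only 16 nt in Mir15b and 15 nt in Mir15a, below the length matched here; the exact sequences had 16 f/f and 0 null reads for Mir15b and 0 in both libraries for Mir15a. Loops of such length can occur elsewhere in the genome, which was not searched.

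On the far side of the 5p arm, Mir195a gave reads that ended at base 20, directly before the mature 5p start at base 21. They numbered 4 in the null and 27 in the f/f library. These bases are released when Drosha cuts. In the other hairpins the mature 5p arm starts between base 4 (Mir15b) and base 17 (Mir16-2). The stretch before the arm is there shorter than the shortest read matched. Such reads could therefore not be found in them, and the members cannot be compared on this point.

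The origin of miR-16 from its loci could be read only from reads that carry bases that differ. Of miR-16 5p reads, 18.5% of 11178 in the null and 99.3% of 342000 in the f/f library fitted both loci. The f/f 5p shares below thus rest on a small part of the reads, with extended ends or shifted starts. They need not hold for the mature form. Past the mature 5p arm the bases of Mir16-1 and Mir16-2 differ, and 66.1% of the 9114 null 5p reads of any length that tell them apart came from Mir16-2 (65.2 to 67.1), as did 68.1% of 2292 f/f reads. For reads of 24 nt or longer the Mir16-2 share was 66.2% of 9079 null reads and 60.9% of 1828 f/f reads. The 24-nt reads are uncertain, because the 23-nt form fits both loci and an added T or A would copy either locus. Among null reads of 26 nt or longer the Mir16-2 share was 89.7% (88.9 to 90.5), and the f/f share was 60.0% of 35 reads (42.1 to 76.1). Reads from the mature 3p start, which differs between the loci at several bases, put the Mir16-2 share at 7 of 10 in the null and at 94.9% of 878 in the f/f library (93.2 to 96.2). Reads that began 1 or 2 bases upstream of the usual 5p start, where the loci also differ, held 8 Mir16-2 and 0 Mir16-1 reads in the null, and 551 Mir16-2 and 5 Mir16-1 reads in the f/f library. The read classes thus differed in the locus they put first. Mir16-2 gave 113 of 219 null reads that began between the mature starts (51.6%, 44.8 to 58.4) and 12 of 38 such f/f reads (31.6%, 17.5 to 48.7). Of 5p reads of 25 nt or longer, 81.9% of 6339 came from Mir16-2 in the null and 40.6% of 101 in the f/f library.

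The leading Mir16-2 read of the upstream kind, with the extra base in capitals, had 0 null and 399 f/f reads.
Mir16-2, upstream start: Ctagcagcacgtaaatattggcg
A start shifted by 1 base moves the seed. Such reads were rare beside the 342000 5p reads of miR-16 in the f/f library.

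Bases added to the 3′ end without a template also differed between the libraries. A tail was counted when at least 18 templated bases from the 5p start were followed by 1 to 3 bases of which none matched the hairpin. Tailed reads made up 3.21% of family 5p reads in the null (2.95 to 3.49) and 5.54% in the f/f library. The members did not share this difference. For miR-15a the tailed share was 4.59% in the null and 33.7% in the f/f library, and for miR-497 0 of 17 reads and 3.44%. For miR-16 it was 3.86% and 3.85%, for miR-15b 1.47% and 1.29%, and for miR-195a 8.05% and 6.83%. Tails of A alone were 27.3% of tailed reads in the null and 86.4% in the f/f library, and tails of T alone (U in the RNA) were 51.0% and 4.19%. An added base that matches the hairpin cannot be counted, so these shares depend on the base that follows each form. After the 22-nt forms of miR-15b and miR-16, which lead in the f/f library, that base is T. A T added there was therefore not counted, and how far this shapes the difference was not tested. Of the 277 null reads with a T tail, 131 were a single Mir16-2 form with 27 templated bases.

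miR-15a stood out among the members. The tailed forms that carry these results follow, with the added base in capitals.
miR-15a plus A: tagcagcacataatggtttgtgA
miR-16 plus A: tagcagcacgtaaatattggcgA
Mir16-2, 27 nt plus T: tagcagcacgtaaatattggcgtagtgT
The miR-15a form had 10 null and 9317 f/f reads, more in the f/f library than the 22-nt form without it, which had 8437. Tails of A alone were on 4.11% of its 5p reads in the null (2.41 to 6.49) and on 30.9% in the f/f library, the second highest share of 156 species seen 1000 or more times in that library, whose median was 5.10%. The miR-16 form had 23 null and 9956 f/f reads, and tails of A were on 1.04% of miR-16 5p reads in the null and 3.38% in the f/f library. miR-15b had the lowest share of A tails in the family in the f/f library, with 0.202% in the null and 0.422% in the f/f library. Tails of any kind were on 1.47% and 1.29% of its 5p reads. An A added to its 21-nt form gives the 22-nt mature form and could not be counted. In miR-15a the base after 21 or 22 nt is G, so an added A was counted. The A tails of miR-15a and miR-15b are therefore not compared like for like. The Mir16-2 form with T had 131 null and 0 f/f reads, and tails of T alone were on 2.41% of null miR-16 reads with at least 24 templated bases and 4.67% of such f/f reads. With 18 to 23 templated bases the shares were 0.815% in the null and 0.135% in the f/f library. Over the family, T tails were on 1.87% of null and 2.90% of f/f reads with at least 24 templated bases, so the direction at that length was opposite to that over all lengths. A few multi-base tails on miR-15a and miR-15b equal the other's sequence with a mismatch, so only tails of A or T alone are compared.

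**Figure D4:**
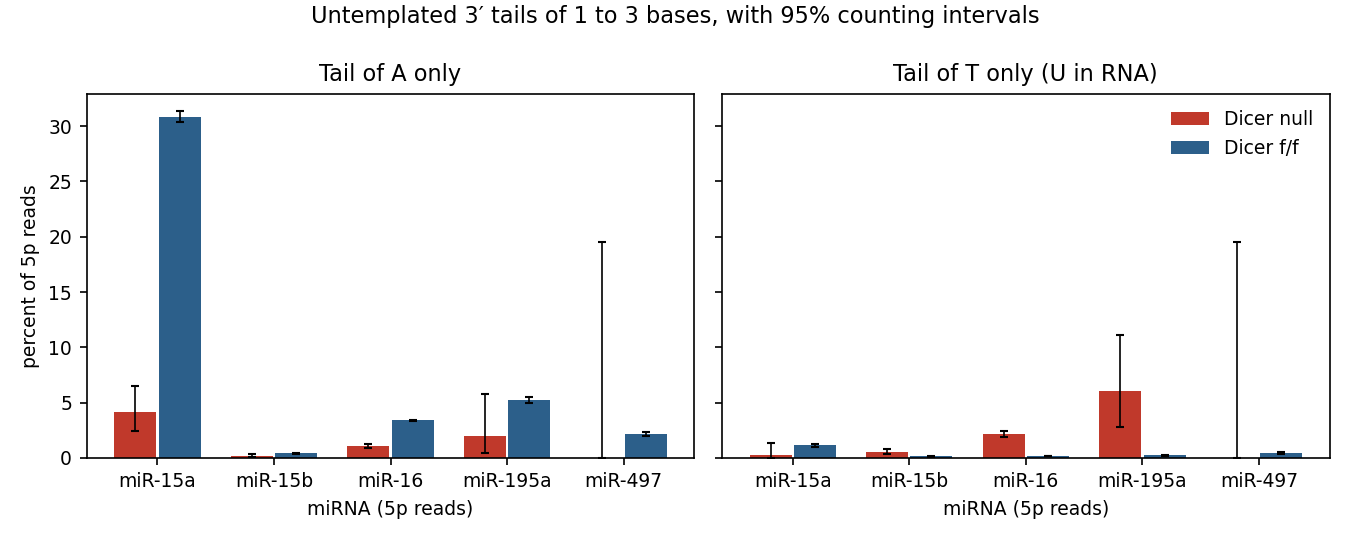
Percent of 5p reads of each miRNA with an untemplated 3′ tail of A alone (left) or T alone (right), null in red and f/f in blue, with exact 95% counting intervals. Added bases that match the hairpin are not counted. A tails on miR-15a in the f/f library, at 30.9%, exceed all other bars, and T tails on miR-16 and miR-195a are higher in the null when all lengths are pooled, although miR-16 reads with at least 24 templated bases had 2.41% in the null and 4.67% in the f/f library; miR-497 has 17 null reads and a wide interval.

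Relatives outside these clusters showed a wider range. miR-322-5p, which carries the same seed and comes from a cluster on the X chromosome with miR-503, had 657 CPM in the null and 1008 CPM in the f/f library, 1.53-fold lower (1.48 to 1.59), which turned to 2.20-fold higher per read that fits a transcript. Its long share was 84.7% in the null and 0.160% in the f/f library, and its short reads were 10.0-fold lower, less than for any of the 5 miRNAs here. miR-503-5p, whose seed is AGCAGCG, had 112 CPM in the null and 93.5 CPM in the f/f library, 1.20-fold higher in the null, or 3.56-fold lower per snoRNA and snRNA read. miR-103-3p and miR-107-3p carry most of the seed bases at a shifted position, and are 3p miRNAs with a 5′ end made by Dicer. By contrast, miR-103-3p was 369-fold lower (265 to 529) with 35 null and 20386 f/f reads. miR-107-3p was at least 419-fold lower with 0 and 1985. miR-451a, which is known to mature without Dicer, had 508 null and 157 f/f reads and was 5.11-fold higher, or 1.20-fold higher per snoRNA and snRNA read. miR-17-5p, a 5p miRNA of another seed, had 112 null and 24041 f/f reads, 136-fold lower. Other listed 5p miRNAs without this seed lost less: miR-21a-5p was 9.04-fold lower and miR-106b-5p 4.47-fold lower. Their null reads were 88.7% and 82.2% long, so mild loss with long reads was not particular to this seed. miR-22-3p, a 3p miRNA, was 2028-fold lower.

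Fragments of mRNA from family targets were too few to compare gene by gene. None of the 12 listed targets (cyclins D1, D2, D3 and E1, Cdk6, Cdc25a, Wee1, Chek1, Bcl2, E2f3, Vegfa and Fgfr1) had 10 f/f reads, and summed they held 344 null and 38 f/f reads, 14.3-fold higher in the null (10.2 to 20.6). Genes listed for microRNA processing held 403 null and 43 f/f reads, 14.8-fold higher (10.8 to 20.8). Those listed as hosts, Dleu2, Smc4 and Trim59, held 147 and 17, 13.7-fold higher (8.25 to 24.1). Trim59 gave 47 and 3 of these reads but overlaps none of the hairpins, and lies 25292 nt from Mir15b and Mir16-2. Fragments of all protein-coding genes summed were 5.89-fold higher, and 87.2% of genes seen 10 or more times in the f/f library exceeded their f/f level more than 2-fold in the null. Among host genes, Smc4 had 77 null and 10 f/f reads and Dleu2 23 and 4. Small RNA fragments do not measure mRNA levels. Dicer1 itself had 23 null and 2 f/f reads, which does not check the genotype, since the deleted exon is not given.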

How the data were processed

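Small RNA of 15 to 50 nt was sequenced from 2 mouse lines, 1 library per genotype. The deposited files list distinct read sequences of 5 to 36 nt with raw counts, each count being how often the sequence was seen. The build is mm9 per the submitters' processing notes; how reads were trimmed or aligned is not given in the sources used here. Inserts longer than 36 nt are truncated there (0.805% of null family reads had that length).

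Groups follow the genotype label. Sequences of 18 nt or longer were searched against GENCODE M21 transcripts, in sense and without mismatch. Mature positions and sequences are RefSeq's (GRCm38.p6), and all 6 hairpins were matched to them. Read starts within 2 nt of a mature start defined the 5p and 3p classes. CPM is the count per 1000000 reads in the file. Reads fitting both Mir16 hairpins were kept as 1 class and counted once for miR-16. Arm species joined hairpins that shared at least 50% of the smaller one's reads. Loops were predicted with RNAfold (ViennaRNA 2.7.2). Shares have Clopper-Pearson intervals and ratios exact conditional intervals, computed with Python 3.11.15, numpy 2.4.6 and scipy 1.17.1. Matching, tails and intervals were tested on simulated data. Replicates are absent, so no test between genotypes was made. The counts came without molecular identifiers, so they include PCR copies.

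All 6 hairpins, each arm with at least 10 reads, the leading forms of each library and listed relatives, host genes and targets were named by rule. The members and lists were chosen with earlier results of these data known; the views by single length, loop product and 3p reach, and the Mir16 read-length limits, were chosen after the values were seen. Alternatives changed the denominator, length window, copy number, tails, minimum reads and fold.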

Additional observations from a re-analysis of the deposited data

How the results depend on the processing

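The family ratio, null over f/f, was 0.0590 per read in the file. It moved to 0.0648 per read of 18 nt or longer, 0.199 per read that fits a transcript, 0.0138 per snoRNA and snRNA read, 0.0113 for reads of 18 to 23 nt and 0.0576 with untemplated tails, and turned to 7.31 for reads of 24 to 36 nt. These scalings shift every log2 ratio by -2.10 (snoRNA and snRNA) or 1.75 (transcripts), so the order of the members is the same under each; on the transcript scale the Mir15b 3p side was 2.69-fold higher, and the denominators' own change between libraries was not tested. The number of family species past 2-fold lower, 7 of 8, was 5 of 6 at a minimum of 1000 f/f reads and 8 of 11 at a minimum of 10, and 7 or 8 of 8 under the other alternatives. With each distinct sequence counted once, the null long share was 63.1% against 80.9%, the share at the commonest f/f 5′ end 44.4% against 97.3%, the share at the commonest f/f 3′ end 6.34% against 3.08%, and the Mir16-2 share 52.5% against 66.1%. That share was 66.2% for reads of 24 nt or longer, 81.9% for reads of 25 nt or longer and 89.7% for 26 nt or longer, limits chosen after seeing the data. The tailed share, 3.21%, was 2.74% for 1 base only and 2.92% without reads of 36 nt. Counting once gives rare sequences the weight of abundant ones. No paired analysis was possible because each genotype has 1 library. Depth limits miR-497, with 17 null reads, and the 3p arms, with 13.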
